A study of Homo sapiens with 4 samples.

Results

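The lysosomal genes described here are cathepsins, other lysosomal hydrolases, lysosomal membrane proteins, subunits of the lysosomal proton pump and TFEB, in PC3 cells treated with control siRNA or COUP-TFII siRNA. They are a named list of 34 genes, and their probe sets were taken where the platform table assigns a probe set to exactly 1 gene. That rule found 74 probe sets of 33 genes, among 54613 probe sets and 19775 genes in all. GLB1 had 1 probe set, which was shared with TMPPE, and was not analysed here. PC3 is an established line of human prostate cancer cells from a bone metastasis. COUP-TFII is a transcription factor of the nuclear receptor family with no established natural ligand. Both groups were grown in RPMI with fetal bovine serum and received 40 nM of siRNA duplexes, and total RNA was taken 48 h later. Each group holds 2 arrays. The labels do not say whether the arrays of a group came from separate transfections, so p-values reflect no more than the scatter of these 4 arrays, possibly technical. The level of the targeted transcript was not analysed here.

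The 4 arrays had medians from 31.7 to 32.9 on the linear intensity scale. The epithelial markers EPCAM, KRT8, KRT18, KRT19 and CDH1 were all above the array median (EPCAM and CDH1 fell by 0.24 and 0.30 on the log2 scale, and KRT8 and KRT18 rose by 0.16 and 0.13), and their summed intensity was 31338 to 31713 on the control arrays and 31145 to 31546 on the COUP-TFII siRNA arrays. Of 7 leukocyte and macrophage markers, 5 lay below the median on every array, and the summed intensity was 135 to 148 on the control arrays and 153 to 155 on the COUP-TFII siRNA arrays. Macrophages are rich in lysosomes. Their markers CD14 and CD163 had mean intensities of 1.07 and 6.81 with control siRNA and 6.76 and 10.7 with COUP-TFII siRNA, all below the array medians, while CSF1R, at 43.9 and 51.4, lay above them. Of the measured luminal prostate markers, KLK2, at 16.9 and 15.5, and KLK3, at 17.1 and 21.5, were also below the median, while TMPRSS2 rose from 144 to 392. Fibroblast markers summed to 677 to 776 and 1092 to 1096, most of it from COL1A1, and endothelial markers to 188 and 220 to 282. For ACTB, dividing the 3′ by the 5′ control probe set, which tracks RNA integrity, gave 1.52 and 1.83 on the control arrays and 1.42 and 1.46 on the COUP-TFII siRNA arrays. For GAPDH the same ratio was 0.957 and 0.986 on the control arrays and 0.994 and 0.986 on the COUP-TFII siRNA arrays. The part of these markers and ratios in the results below was not tested.

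Lysosomes are acidic compartments in which proteins, glycans and lipids are broken down. A proton pump, the V-ATPase, keeps their lumen acidic, soluble hydrolases such as the cathepsins do the digestion, and heavily glycosylated membrane proteins line the limiting membrane. TFEB is a transcription factor that binds the E-box-like CLEAR element in the promoters of many of these genes. In prostate and other cancers, cathepsins are also known as secreted or surface-bound proteases that cleave extracellular matrix.

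With COUP-TFII siRNA more lysosomal genes were higher than lower. The rises included cathepsins, 4 of 11 other hydrolases, the sphingolipid activator precursor PSAP and subunits of the proton pump. Each gene was represented by its brightest probe set, leaving out _x_at probe sets where it had another. Of the 33 measured, 15 were higher, 4 lower and 14 short of an adjusted p of 0.05 (limma, Benjamini-Hochberg over all 19775 genes). Over all genes tested, 23.0% passed, with 12.7% higher and 10.3% lower. The share of lysosomal genes that rose was 45.5%, above that background, and the share that fell was 12.1%, close to it. The genes were chosen with earlier results of these data known, so these shares are descriptions and no test of the list. None of the 33 was below the array median on every array. Among the 13926 genes that share this property 17.9% rose and 14.4% fell. The median log2 fold change of the lysosomal genes was 0.17, against 0.01 for all genes. Fold changes here are differences of mean log2(intensity + 16), COUP-TFII siRNA minus control siRNA, and adding 16 understates changes of dim genes. In bulk RNA, fewer cells that express a gene and less of its RNA per cell cannot be told apart. The control and COUP-TFII siRNA arrays did not overlap for 19 genes that were higher and 7 that were lower. Of all genes 57.5% had groups that do not overlap, 30.8% higher and 26.7% lower. The rises that passed ran from 0.17 for ASAH1 to 1.32 for CTSF, and the falls from 0.15 for CD63 to 1.36 for SCARB2, on the log2 scale. The count of rises was between 9 and 11 when 1 array was left out (9 without control replicate 2) and 6 with 1 prior variance for all genes, and the count of falls was 1 without control replicate 1, 1 without control replicate 2 and 2 when COUP-TFII siRNA replicate 1 was left out. When values were centred on 11 housekeeping genes, the all-gene median went from 0.01 to 0.24, and 84.8% of all calls were then higher, against 55.3%. Centring subtracted the median log2 intensity of these genes on each array, so a middle level set the shift of 0.225. The 12 measured genes of the housekeeping list, from which the 11 were taken, had a median log2 fold change of −0.04. They ranged from −0.77 to 1.04, with 2 higher and 2 lower, so the shift was not a change they shared. The split of the lysosomal genes was then 20 higher and 1 lower, and their median was 0.40. Over all genes, rises numbered 6321 with centring and 754 with 1 prior variance, against 2519. Falls over all genes numbered 1130 and 814, against 2039. Calls over all genes were also fewer in both directions with any 1 array left out.

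**Figure D1:**
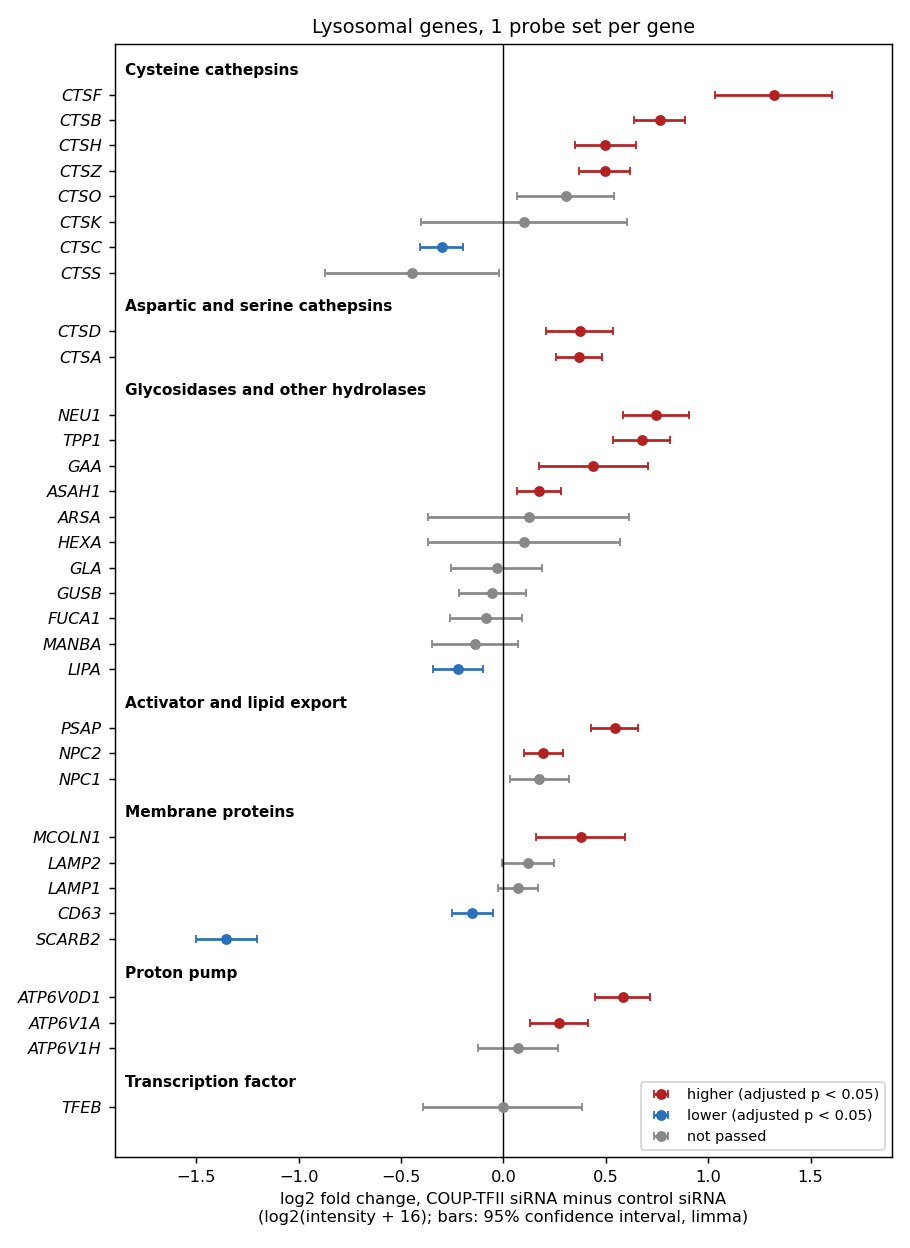
Log2 fold change of each of the 33 measured lysosomal genes (x axis, COUP-TFII siRNA minus control siRNA, log2(intensity + 16)), grouped by role on the y axis. Points are the limma estimates from 2 arrays a group, bars are 95% confidence intervals, and colour gives the call. CTSF, at 1.32, lies farthest to the right, SCARB2, at −1.36, farthest to the left, and TFEB at −0.0046.

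The promoters of genes in this list are shown because the CLEAR element, to which TFEB and its relatives bind, is a feature that many lysosomal genes are known to share and that the choice of genes did not use. RefSeq promoter windows of 250 bases before to 50 after a transcription start (GRCh38.p14) matched 22 of the 34 genes, with 34 windows, 4 genes having several. The letters searched, on both strands, were CACGTG (the palindromic E-box), TCACGTGA (the core of the CLEAR element, which contains the first), AGGTCA (the hexamer that nuclear receptors recognise) and a direct repeat of AGGTCA with 1 base of any kind between the copies (DR1, an element bound by COUP-TF and related receptors). CACGTG was in the windows of 9 of the 22 genes, or 40.9%, against 8.77% of all genes with a window. TCACGTGA was in those of 5 (ATP6V0D1, CTSA, GAA, LAMP1 and MCOLN1), or 22.7%, against 1.18%. AGGTCA was in those of 3 genes, ATP6V0D1, CD63 and CTSF, or 13.6%, against 16.5%. The DR1 repeat was in 0 of the 22, against 0.0293% of all genes. These are matches of letters in a short window, and no binding was measured. The 250 bases before the start are printed below for 5 genes that rose and hold CACGTG, and for SCARB2, the gene with the largest fall, whose window holds none. These genes were picked by call and match together, so the printed set does not compare rises with falls. CD63, which fell, also holds CACGTG and is not printed. Capitals mark CACGTG, and each sequence runs 5′ to 3′ on the strand of the gene.
GAA (chr17:80101331-80101580, plus strand): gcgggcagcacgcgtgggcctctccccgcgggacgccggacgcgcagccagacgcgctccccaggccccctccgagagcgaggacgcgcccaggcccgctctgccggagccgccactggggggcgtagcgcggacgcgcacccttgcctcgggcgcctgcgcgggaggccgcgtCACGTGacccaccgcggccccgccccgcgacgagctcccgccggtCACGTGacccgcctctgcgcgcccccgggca
MCOLN1 (chr19:7522374-7522623, plus strand): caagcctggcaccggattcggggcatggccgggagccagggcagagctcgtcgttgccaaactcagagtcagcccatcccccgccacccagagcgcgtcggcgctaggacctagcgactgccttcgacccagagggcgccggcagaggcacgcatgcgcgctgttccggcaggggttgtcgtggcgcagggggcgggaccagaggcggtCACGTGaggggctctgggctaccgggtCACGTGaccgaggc
CTSA (chr20:45891085-45891334, plus strand): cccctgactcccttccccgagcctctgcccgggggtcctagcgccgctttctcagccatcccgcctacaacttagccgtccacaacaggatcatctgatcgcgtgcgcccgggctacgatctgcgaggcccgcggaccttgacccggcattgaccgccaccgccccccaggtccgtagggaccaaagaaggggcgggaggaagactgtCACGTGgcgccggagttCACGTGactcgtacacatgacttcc
ATP6V0D1 (chr16:67481158-67481407, minus strand): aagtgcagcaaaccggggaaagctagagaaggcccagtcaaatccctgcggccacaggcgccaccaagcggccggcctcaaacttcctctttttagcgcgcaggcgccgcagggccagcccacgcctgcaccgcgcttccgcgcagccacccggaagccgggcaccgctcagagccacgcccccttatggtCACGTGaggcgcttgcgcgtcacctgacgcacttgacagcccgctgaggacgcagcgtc
CTSF (chr11:66568607-66568856, minus strand): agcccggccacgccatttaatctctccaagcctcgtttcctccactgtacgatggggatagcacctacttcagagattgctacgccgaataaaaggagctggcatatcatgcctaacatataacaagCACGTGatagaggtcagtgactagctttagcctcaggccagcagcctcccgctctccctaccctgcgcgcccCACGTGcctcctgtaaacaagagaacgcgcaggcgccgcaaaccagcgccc
SCARB2 (chr4:76213825-76214074, minus strand): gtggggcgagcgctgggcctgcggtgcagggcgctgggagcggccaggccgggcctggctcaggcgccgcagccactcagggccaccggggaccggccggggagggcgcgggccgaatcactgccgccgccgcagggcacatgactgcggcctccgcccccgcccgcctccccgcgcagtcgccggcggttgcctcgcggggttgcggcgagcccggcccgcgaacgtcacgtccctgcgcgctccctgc

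In GAA the first base of CACGTG lay at −76 and −31 from the start, in MCOLN1 at −41 and −14, in CTSA at −42 and −25, in ATP6V0D1 at −59 and in CTSF at −123 and −51. LAMP1 held 6 matches in its window, the last of them at −1. Among the 9 measured genes whose window holds CACGTG, 7 rose (ATP6V0D1, CTSA, CTSD, CTSF, GAA, MCOLN1 and NEU1), 1 fell (CD63) and 1 did not pass (LAMP1). Among the 12 measured genes with a window but no CACGTG, 4 rose (CTSH, CTSZ, NPC2 and TPP1), 3 fell (CTSC, LIPA and SCARB2) and 5 did not pass. The remaining rises, ASAH1, ATP6V1A, CTSB and PSAP, had no window. Over all genes with a window and a measurement, 16% of 1672 with CACGTG rose and 13.2% of 13712 without it. For the longer TCACGTGA, 24.7% of 255 genes rose, against 13.3% of 15129 without it, and 4 of the 5 measured lysosomal genes that hold it rose, while of the 16 without it 7 rose and 4 fell. These shares are descriptions, and the difference between them was not tested.

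The cysteine cathepsins, papain-like proteases, moved in both directions, with 4 of 8 higher, 1 lower and 3 not passing. CTSF, cathepsin F, had intensities of 143 and 116 on the control arrays and 357 and 333 on the COUP-TFII siRNA arrays. The groups lay far apart, and the log2 fold change was 1.32 ± 0.12 (SE; limma adjusted p = 0.000102), or 2.50-fold on that scale. CTSB, cathepsin B, an endopeptidase often studied in tumour invasion, had 1025 and 1035 with control siRNA and 1762 and 1755 with COUP-TFII siRNA. Its arrays within a group were nearly equal, and it rose by 0.76 ± 0.05 (SE; limma adjusted p = 2.25e-05). All 5 CTSB probe sets passed as higher, with log2 fold changes from 0.73 to 1.11. CTSH, an aminopeptidase of the family, had 704 and 680 against 1008 and 959, and rose by 0.50 ± 0.07. CTSZ, a carboxypeptidase also called cathepsin X, had 1893 and 1768 against 2607 and 2560, and rose by 0.49 ± 0.05. Its other probe set was dim and uneven, at 13.7 and 32.9 with control siRNA and 134 and 8.46 with COUP-TFII siRNA, so that the mean of both was not called (limma adjusted p = 0.367). CTSF, CTSB, CTSH and CTSZ stayed higher and passed with any 1 array left out.

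CTSC, cathepsin C or dipeptidyl peptidase 1, which activates granule serine proteases, was the cysteine cathepsin that fell. Its intensities were 3686 and 3668 with control siRNA and 2939 and 3021 with COUP-TFII siRNA, which is −0.30 ± 0.05 as a log2 fold change (SE; limma adjusted p = 0.00163). All 4 of its probe sets were lower, by 0.23 to 0.52, and 3 of them passed. The call was lost without control replicate 1 (limma adjusted p = 0.0586) or control replicate 2 (limma adjusted p = 0.0581), and centring on housekeeping genes left −0.08. CTSO had 218 and 231 against 266 and 296, higher without overlap, at 0.30 ± 0.10 (SE; limma adjusted p = 0.0684). It passed with the replicate number as a block (limma adjusted p = 0.047) and with dim genes left out (0.0202). It also passed with centring on housekeeping genes (limma adjusted p = 0.00176), which raised every gene by 0.225. CTSS, the cathepsin of antigen presentation, was dim, at 63.7 and 81.6 against 49.6 and 47.8 on its brightest probe set, lower without overlap, at −0.45 ± 0.19 (SE; limma adjusted p = 0.132). Its 3 probe sets ran from −0.45 to 0.14. CTSS passed as lower with dim genes left out (limma adjusted p = 0.048). CTSK, the collagenolytic cathepsin of osteoclasts, had 35.7 and 58.2 against 49.5 and 51.3, overlapping, with a 95% interval of its log2 fold change from −0.40 to 0.60.

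Both cathepsins of other catalytic classes rose, by nearly the same amount. CTSD, the aspartic protease cathepsin D, had 467 and 471 with control siRNA and 614 and 610 with COUP-TFII siRNA. It rose by 0.37 ± 0.07 (SE; limma adjusted p = 0.00536) and was not called without control replicate 1 (limma adjusted p = 0.0697) or control replicate 2 (limma adjusted p = 0.0678). CTSA, the serine carboxypeptidase that also protects NEU1 and beta-galactosidase in a complex, had 2720 and 2860 against 3567 and 3638. It rose by 0.37 ± 0.05 (SE; limma adjusted p = 0.000753) and passed with any 1 array left out.

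**Figure D2:**
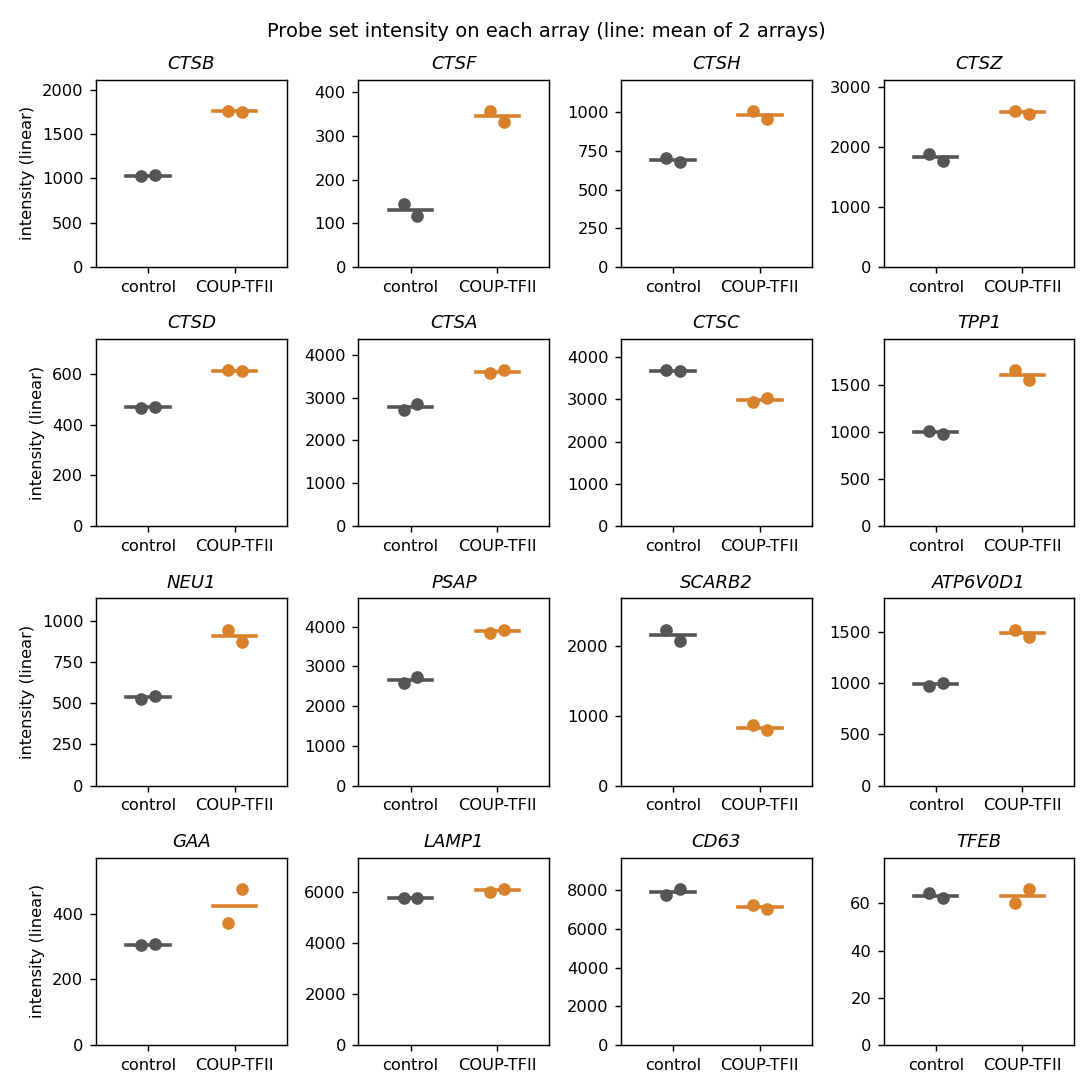
Intensity on each of the 4 arrays for 16 lysosomal genes (y axis, linear scale from 0; x axis, control siRNA and COUP-TFII siRNA). Points are single arrays and lines are means of 2 arrays; SCARB2 fell from 2240 and 2072 to 863 and 803, while the TFEB arrays of both groups lie between 60.1 and 66.1.

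Among the other hydrolases 4 of 11 rose, 1 fell and 6 were not called. NEU1, the lysosomal sialidase, had 527 and 544 with control siRNA and 946 and 874 with COUP-TFII siRNA, a rise of 0.75 ± 0.07 (SE; limma adjusted p = 0.000112). TPP1, a tripeptidyl peptidase, had 1013 and 984 against 1657 and 1551, a rise of 0.67 ± 0.06 (SE; limma adjusted p = 7.79e-05). All 4 TPP1 probe sets were higher, 2 of them passing, and both genes passed with any 1 array left out. GAA, acid alpha-glucosidase, which degrades glycogen, had 304 and 309 against 372 and 477. Its COUP-TFII siRNA arrays differed from each other by more than the lower of them differed from the controls, and the rise of 0.44 ± 0.12 (SE; limma adjusted p = 0.0249) was not called without COUP-TFII siRNA replicate 2 (0.27, limma adjusted p = 0.146), control replicate 1 (limma adjusted p = 0.184) or control replicate 2 (limma adjusted p = 0.178). ASAH1, acid ceramidase, had 2257 and 2245 against 2539 and 2542, a small rise of 0.17 ± 0.05 (SE; limma adjusted p = 0.0307). No fit on 3 arrays called it, and its 5 probe sets ran from −0.14 to 0.24. Nor was it called on its brighter _x_at probe set, at 0.10 (limma adjusted p = 0.189). With its probe sets averaged it was 0.07 and not called (limma adjusted p = 0.514).

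LIPA, lysosomal acid lipase, which hydrolyses cholesteryl esters and triglycerides, was the hydrolase that fell. Its intensities were 1976 and 1932 with control siRNA and 1635 and 1708 with COUP-TFII siRNA, which is −0.22 ± 0.05 as a log2 fold change (SE; limma adjusted p = 0.016). After centring on housekeeping genes it was 0.0013. Of the 4 fits with 1 array left out, LIPA passed in the 1 without COUP-TFII siRNA replicate 2 (limma adjusted p = 0.0486), and it did not pass without control replicate 1 (0.159), control replicate 2 (0.125) or COUP-TFII siRNA replicate 1 (0.0893, all limma adjusted p). The glycosidases GLA, GUSB, FUCA1 and MANBA had log2 fold changes between −0.14 and −0.03 and did not pass. All were above 0 (0.084 to 0.19) after centring on housekeeping genes, where the all-gene median was 0.24. GUSB, beta-glucuronidase, which is also used as a reference gene, had 722 and 728 against 731 and 665, overlapping. MANBA, beta-mannosidase, had 422 and 392 against 389 and 347, lower without overlap. HEXA, which takes part in ganglioside breakdown, at 31.5 to 42.9 over the 4 arrays, was near the array median. ARSA, arylsulfatase A, ranged from 63.0 to 99.8, and its 95% interval ran from −0.37 to 0.61.

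Of the proteins that present or export lysosomal lipids, 2 of 3 rose. PSAP, prosaposin, the precursor of the saposins that activate sphingolipid hydrolases, had 2588 and 2741 with control siRNA and 3852 and 3925 with COUP-TFII siRNA, a rise of 0.54 ± 0.05 (SE; limma adjusted p = 9.03e-05) that both of its probe sets showed and that passed with any 1 array left out. NPC2, a soluble cholesterol carrier, had 6079 and 6038 against 7019 and 6850, a rise of 0.19 ± 0.04 (SE; limma adjusted p = 0.00964). It passed only in the fit without COUP-TFII siRNA replicate 2 (limma adjusted p = 0.0429), and not without control replicate 1 (0.13), control replicate 2 (0.154) or COUP-TFII siRNA replicate 1 (0.0649, all limma adjusted p). NPC1, the membrane protein that takes cholesterol from NPC2, had 1090 and 1101 against 1295 and 1186, higher without overlap, at 0.18 ± 0.06 (SE; limma adjusted p = 0.087). It passed with arrays scaled to 1 median (limma adjusted p = 0.0399). It also passed with centring on housekeeping genes (limma adjusted p = 9.42e-05), which raised every gene by 0.225. The other 3 NPC1 probe sets, all dimmer, were between −0.22 and −0.09.

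The membrane proteins held both the largest fall and values close to 0. SCARB2, also called LIMP-2, a major glycoprotein of the lysosomal membrane that also acts as a sorting receptor, had 2240 and 2072 with control siRNA and 863 and 803 with COUP-TFII siRNA. The groups lay far apart, and it fell by 1.36 ± 0.07 on the log2 scale (SE; limma adjusted p = 3.14e-06), to 0.391 of the control level. It passed with any 1 array left out. Its probe sets differed in size. A second one fell by 1.12 and passed, another was lower by 0.38 (limma adjusted p = 0.0799 among probe sets), and the last, below the median on every array, was at 0.21, so that the mean of all 4 fell by 0.66. MCOLN1, the calcium channel mucolipin-1, had 287 and 278 against 394 and 350, a rise of 0.38 ± 0.10 (SE; limma adjusted p = 0.02) that no fit on 3 arrays called (limma adjusted p = 0.0518 to 0.156). CD63, a tetraspanin of late endosomes and exosomes, had 7759 and 8059 against 7224 and 7014, a fall of 0.15 ± 0.04 (SE; limma adjusted p = 0.035) that turned to 0.074 after centring on housekeeping genes. Each fit of CD63 on 3 arrays missed the threshold (limma adjusted p = 0.0901 to 0.322). LAMP1 and LAMP2, the most abundant glycoproteins of the lysosomal membrane, did not pass. LAMP1 had 5787 and 5774 against 6015 and 6127, with a 95% interval of its log2 fold change from −0.03 to 0.17, and LAMP2 had 2066 and 1923 against 2151 and 2183, with an interval from −0.01 to 0.25. Both were called as higher after quantile normalization (limma adjusted p = 0.0289 and 0.0455). They also passed with centring on housekeeping genes (limma adjusted p = 0.000137 and 0.000229), which raised every gene by 0.225.

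Among the 5 membrane proteins of the list, SCARB2 and CD63 fell, by different amounts. The 95% interval of SCARB2 ended at −1.21, and did not meet that of CD63, from −0.25 to −0.05, nor those of LAMP1 and LAMP2. The difference between these genes was not tested.

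The proton pump subunits were higher or near 0. ATP6V0D1, of the membrane sector, had 976 and 997 with control siRNA and 1521 and 1448 with COUP-TFII siRNA, a rise of 0.58 ± 0.06 (SE; limma adjusted p = 0.000156) that passed with any 1 array left out. ATP6V1A, the catalytic subunit of the peripheral sector, had 2169 and 1931 against 2487 and 2460, a rise of 0.27 ± 0.06 (SE; limma adjusted p = 0.0137) with both probe sets passing. It was 0.19 without control replicate 2 (limma adjusted p = 0.172), and it was not called without COUP-TFII siRNA replicate 1 (limma adjusted p = 0.139) or replicate 2 (limma adjusted p = 0.119). ATP6V1H, the regulatory H subunit, had 772 and 663 against 778 and 725, overlapping, at 0.07 ± 0.09. TFEB itself had 64.5 and 62.1 against 60.1 and 66.1. The groups overlapped, the log2 fold change was −0.0046, and the 95% interval ran from −0.39 to 0.39. After centring on housekeeping genes it was 0.22, where the all-gene median was 0.24.

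Across all 74 probe sets, tested among 54613, 21 were higher, 6 lower and 47 did not pass, where 6.51% of all probe sets were higher and 5.67% lower. The lysosomal shares were 28.4% and 8.11%. Of the 74, 10 lay below the median on every array. With p-values adjusted over probe sets, GAA (limma adjusted p = 0.0552), ASAH1 (0.0567) and CD63 (0.0806) no longer passed, and 1 of the 4 LAMP1 probe sets did, at 0.28 (limma adjusted p = 0.0459). CTSB, with 5 of 5 higher, and CTSC, with 3 of 4 lower, were the genes with the most probe sets passing. A second ARSA probe set, at 19.2 and 7.59 against 51.3 and 30.1, had a log2 fold change of 0.95 and did not pass (limma adjusted p = 0.0998). The counts of lysosomal probe sets called higher and lower were both smaller with any 1 array left out. So were the counts over all probe sets.

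**Figure D3:**
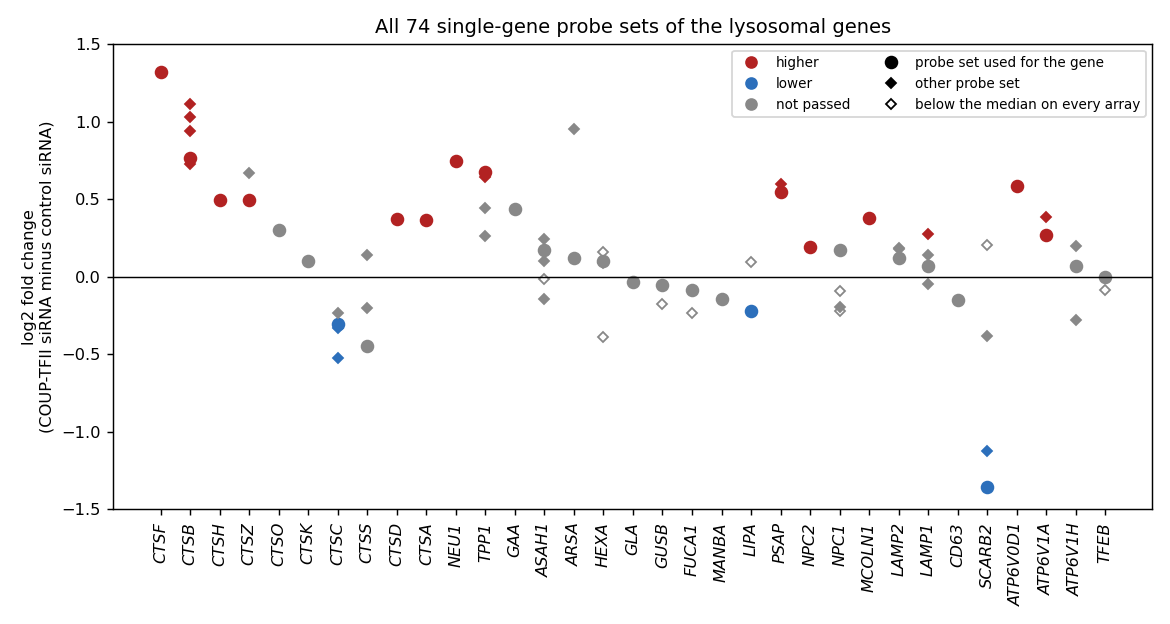
Log2 fold change (y axis) of all 74 single-gene probe sets of the 33 lysosomal genes (x axis, ordered by role as in the plot of fold changes). Circles are the probe sets that represent a gene, diamonds the others, open symbols lie below the array median on every array, and colour gives the call over 54613 probe sets: all 5 CTSB probe sets are above 0, and the SCARB2 probe sets range from −1.36 to 0.21.

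Genes of the same pathway that are outside the list were counted in the same way, by role. Of 21 other lysosomal hydrolases tested 9 were called higher and 1 lower (11 uncalled; median log2 fold change 0.21), against 12.7% higher and 10.3% lower of all genes. GALNS, a sulfatase of keratan sulfate, rose most, from 506 and 531 to 776 and 835. The log2 change was 0.62 ± 0.07 (SE; limma adjusted p = 0.000365), and 0.36 with its probe sets averaged (limma adjusted p = 0.221). ACP2, lysosomal acid phosphatase, was the 1 that fell, by 0.29 ± 0.09, and each fit on 3 arrays lost the call (limma adjusted p = 0.0715 to 0.191). Among 7 other cathepsins and legumain, CTSV, a close relative of CTSL, rose by 0.40 ± 0.08, a call that each fit on 3 arrays lost (limma adjusted p = 0.0512 to 0.0851). CTSL, at 811 ± 100 against 746 ± 25 (SD, n = 2), and the asparaginyl endopeptidase gene LGMN, at 585 ± 27 against 577 ± 28, did not pass.

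Of 8 cystatins, the inhibitors of cysteine cathepsins, 3 rose and 5 did not pass, and none was lower at an unadjusted p of 0.05 (limma). Of all genes 12.7% rose and 10.3% fell. CST6, cystatin E/M, rose from 1208 and 1222 to 2719 and 2874, which is 1.19 ± 0.05 as a log2 fold change (SE; limma adjusted p = 2.5e-06) and passed with any 1 array left out. CST3, cystatin C, rose by 0.32 ± 0.06, or 0.11 with its probe sets averaged, and was called only without control replicate 2 among the fits with 1 array left out (limma adjusted p = 0.0426 to 0.0988). CST2, a salivary cystatin, rose by 1.45 ± 0.25 from 29.2 ± 9.9 to 108 ± 35 (SD, n = 2), on a probe set open to cross-hybridisation, and was not called without control replicate 2 (limma adjusted p = 0.0693) or COUP-TFII siRNA replicate 1 (limma adjusted p = 0.0852). CSTB, the cytosolic cystatin B, had 8799 ± 194 against 8201 ± 400 (SD, n = 2) and did not pass.

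Of 18 other lysosomal membrane proteins 7 were called lower, 4 higher and 7 neither (median −0.01). These are 38.9% lower and 22.2% higher, against 10.3% and 12.7% of all genes. The 5 membrane proteins of the list had 40% and 20%. Centring on housekeeping genes turned the split of the 18 to 8 higher and 4 lower. OSTM1, the partner subunit of the chloride transporter CLCN7, fell from 453 and 429 to 103 and 99.4, which is −1.96 ± 0.11 as a log2 fold change (SE; limma adjusted p = 5.54e-06). LAPTM4A, a small late endosomal membrane protein, and LAMP3, the dendritic cell LAMP, fell by 1.21 and 1.33 on the log2 scale; both were picked out once their values were known. LAPTM4B, the paralog of LAPTM4A, fell by 0.19 ± 0.05, which turned to 0.033 after centring on housekeeping genes, and of the fits on 3 arrays the one without COUP-TFII siRNA replicate 1 called it (limma adjusted p = 0.0313 to 0.22). SLC17A5, the sialic acid exporter sialin, rose from 381 and 381 to 643 and 635, which is 0.72 ± 0.07 as a log2 fold change (SE; limma adjusted p = 0.000161). OSTM1 and SLC17A5 passed with any 1 array left out.

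The other V-ATPase subunits were mixed, with 4 of 16 higher, 1 lower and 11 uncalled (median 0.0012). Over all genes 12.7% were higher and 10.3% lower. ATP6V1D rose by 0.35 ± 0.05, and every fit on 3 arrays kept the call (limma adjusted p = 0.0225 to 0.0438), while the mean of its probe sets, at 0.21, was not called (limma adjusted p = 0.11). ATP6V1B2, the B subunit of most tissues, rose by 0.32 ± 0.07 and passed only without COUP-TFII siRNA replicate 2 among those fits (limma adjusted p = 0.0428 to 0.132). The accessory subunit gene ATP6AP1 fell by 0.25 ± 0.05, or 0.024 after centring on housekeeping genes, and also passed only without COUP-TFII siRNA replicate 2 (limma adjusted p = 0.0473 to 0.132). ATP6V0C, the proton-carrying ring subunit, had 1879 ± 7 against 1903 ± 72 (SD, n = 2). Of 15 genes that tag hydrolases with mannose 6-phosphate or sort them to lysosomes, 1 rose, SORL1, by 0.48 ± 0.11, or 0.27 without control replicate 2 (limma adjusted p = 0.0736), and 14 did not pass. SORL1 was also not called without COUP-TFII siRNA replicate 1 (limma adjusted p = 0.182) or replicate 2 (limma adjusted p = 0.178). The mannose 6-phosphate receptor genes IGF2R and M6PR were lower without passing, at −0.22 and −0.16 (limma adjusted p = 0.153 and 0.312), and were 0.00047 and 0.068 after centring on housekeeping genes.

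Genes of lysosomal signalling and autophagy, the route by which cell contents reach lysosomes, were higher more often than all genes (12.7%, with 10.3% lower). In the list of TFEB relatives and mTORC1 components at the lysosome 7 of 19 rose and 0 fell by limma (1 fell at an unadjusted p of 0.05), and the median was 0.28. That 1 was MITF, a TFEB relative, at −0.23 (limma adjusted p = 0.116; 0.0471 after quantile normalization). TFE3, another relative, had 2315 ± 18 against 2628 ± 336 (SD, n = 2) and did not pass. RRAGB, a Rag GTPase that recruits mTORC1, rose by 0.67 ± 0.14 and was called only without COUP-TFII siRNA replicate 1 among the fits with 1 array left out (limma adjusted p = 0.0372 to 0.114). Autophagy genes were called higher in 14 of 23 cases and lower in 1 (median 0.35). SQSTM1, the cargo receptor p62, rose from 3848 and 4036 to 6425 and 6273, which is 0.69 ± 0.05 as a log2 fold change (SE; limma adjusted p = 1.61e-05), and TMEM106B, a late endosomal and lysosomal membrane protein, rose from 1750 and 1453 to 2870 and 2674, by 0.79 ± 0.08. Both passed with any 1 array left out. MAP1LC3B, an LC3 protein of the autophagosome membrane, rose by 0.35 ± 0.07 and passed only without COUP-TFII siRNA replicate 2 (limma adjusted p = 0.0239 to 0.138). ATG16L1, the 1 that fell, by 0.36 ± 0.10, or 0.12 with its probe sets averaged, was called by no fit on 3 arrays (limma adjusted p = 0.0953 to 0.213).

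**Figure D4:**
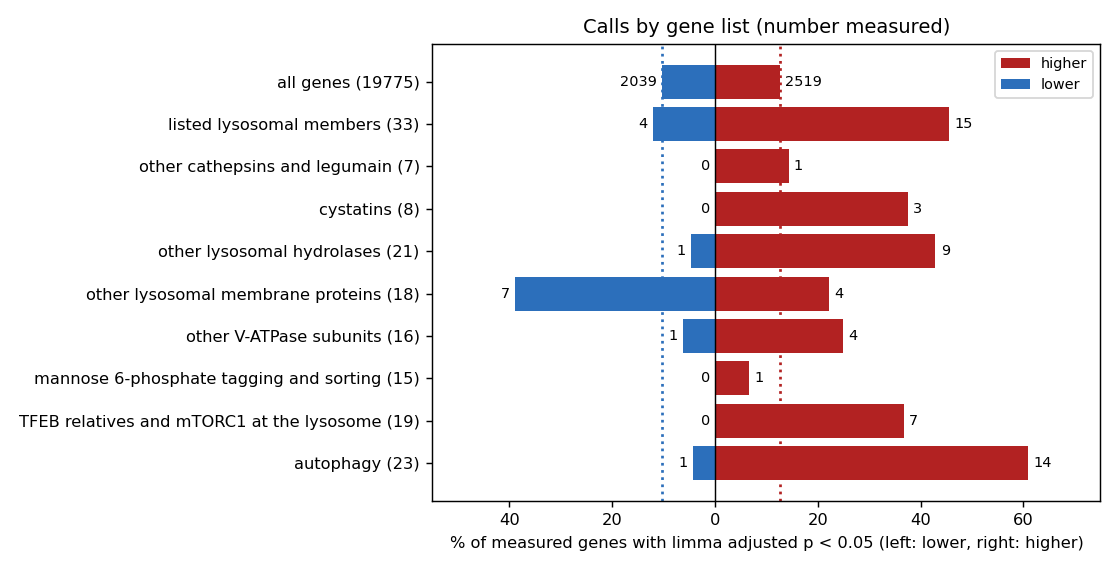
Share of the measured genes of each list (y axis, number measured in brackets) that passed limma's adjusted p of 0.05, higher to the right and lower to the left (x axis, %), with the number of genes at each bar. Dotted lines mark the shares of all genes, 12.7% higher and 10.3% lower; the other membrane proteins are the list with the highest share lower, 38.9%, and autophagy the list with the highest share higher, 60.9%.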

How the data were processed

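PC3 RNA, extracted with Trizol, was labelled with biotin by a 3′ IVT kit and hybridised to 1-colour arrays, per the labels' protocols. The values the authors deposited are linear intensities of 54675 probe sets per array, between 0.61 and 15890. How they were summarised, background-corrected and normalised is not given in the sources used here. The number of arrays limits the precision. Values were used as log2(value + 16) without further scaling; 31.4% to 33.0% of values per array lay below 16. The 62 control probe sets were left out. Probe sets with 1 gene in the platform table (41091) were named through Entrez identifiers and RefSeq (GRCh38.p14). Each gene was represented by its brightest probe set over all 4 arrays, leaving out _x_at probe sets where it had another. Groups were compared with limma 3.58.1 in R 4.3.3 (lmFit, eBayes with an intensity trend, no replicate block; 2 residual degrees of freedom, 8.78 after moderation). P-values were adjusted by Benjamini-Hochberg over all genes, or over all probe sets, at 0.05. The fit was tested on simulated data. With 2 arrays against 2, an exact permutation test of 1 gene cannot give a two-sided p below 0.333. Figures used matplotlib 3.10.9.

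The genes and gene lists were chosen with earlier results of these data known. All members are named; of the other lists, the largest rise and fall that passed and 20 genes listed in the naming rule are named, except 4 not analysed here. Alternatives covered the replicate block, quantile normalization, scaling to 1 median, centring on housekeeping genes, 1 and 64 as the pseudocount, leaving out dim genes, 1 prior variance for all genes, a threshold of 0.01, probe set choice and each array left out.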

Additional observations from a re-analysis of the deposited data

How the results depend on the processing

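The 15 rises kept their direction under all 15 alternatives, and 6 of them (CTSB, CTSF, TPP1, NEU1, PSAP and ATP6V0D1) also kept their call. Of the 4 falls, SCARB2 kept both and CTSC its direction. The replicate block, leaving out dim genes, 1 prior variance and the threshold of 0.01 cannot change a fold change, so they are no test of direction. Centring added 0.225 to every gene and could not turn a rise. LIPA turned to 0.0013 and CD63 to 0.074 with centring on housekeeping genes, and LAPTM4B, a called fall outside the list, to 0.033. Among named genes that did not pass, GLA, GUSB, MANBA, FUCA1, TFEB, CTSL, LGMN (0.21), CSTB (0.12), IGF2R and M6PR also went from below to above 0 with centring. Lysosomal genes called higher numbered 6 with 1 prior variance and 9 to 11 with 1 array left out, against 15. Those called lower, 4 in the main comparison, numbered 1 with centring and with 1 prior variance, 2 at a threshold of 0.01 and with averaged probe sets, and 1 to 3 with 1 array left out. Probe sets called higher numbered 36 with centring, 1 with 1 prior variance and 3 to 15 with 1 array left out, against 21, and those called lower 3, 1 and 1 to 3, against 6. With 1 array left out the lone array is assumed to vary like the other group. Calls over all features moved as well. Over all genes 754 were higher with 1 prior variance and 6321 with centring, against 2519, and 814 and 1130 lower, against 2039. Lower calls numbered 1318 at a threshold of 0.01 and 1532 with averaged probe sets. Over all probe sets 172 and 11581 were higher, against 3554, and 355 and 1972 lower, against 3094. With any 1 array left out all these counts were smaller than in the main comparison.

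Centring also gave 3 higher for other cathepsins and legumain, 5 for cystatins, 14 higher and 0 lower for other hydrolases, 8 and 4 for other membrane proteins, 9 and 0 for other V-ATPase subunits, 7 higher for sorting genes, 15 higher for TFEB relatives and mTORC1, and 0 lower for autophagy. Of all 19775 genes, 6321 were then higher and 1130 lower, so these counts include a shift of all genes. With the replicate number as a block 16 lysosomal genes were higher and 4 lower (24 and 6 probe sets), and 5126 of all genes passed, against 4558. Deviations of arrays with the same number correlated at 0.03 over 13926 genes, so the numbers were not taken as pairs. Fold changes of dim probe sets are limited by signal over background.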
